A study of Homo sapiens with 12 samples.

Results

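The comparison described here is serum starvation against normal culture in CFPAC-1, an established line of human pancreatic ductal adenocarcinoma. It rests on 6 of the 12 RNA-seq libraries of the series, 3 labelled Cfpac-1_control (normal culture) and 3 labelled Cfpac-1_cilia (48 h without serum, called induced below). The other 6 libraries are of BxPC-3, a second established line, under the same culture conditions, and they enter only the estimate of spread and the closing comparison of the lines. According to the series text, which gives no error, 7% of cells carried a cilium in normal culture and 39% after starvation. All genes of the deposited table with at least 1 FPKM (fragments scaled to transcript length and to the mapped total) in at least 3 of the 6 CFPAC-1 libraries were taken, 11269 of 60564 genes. Loss of serum and growth of cilia belong to the same condition, so their effects cannot be told apart. Whether each library had a culture of its own is not stated in the labels, and p-values then measure only the spread among these libraries, which may be technical.

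Serum supplies the growth factors and lipids that keep cultured cells dividing. Cells deprived of it usually leave the cell cycle, slow the building of ribosomes and lipids, and free the centriole to act as the basal body of a primary cilium, a single sensory projection of the cell surface. The cilium is built by intraflagellar transport, gated by a transition zone, supplied with membrane proteins by the BBSome, and taken apart again when cells return to the cycle through kinases such as AURKA. In vertebrate cells it is also where the Hedgehog signal is read.

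The libraries labelled control 2 and control 3 stood apart from the other 4. Across the tested genes, which are not independent replicates, they correlated at r = 0.989 with each other and on average at 0.799 with control 1 and 0.78 with the induced libraries. Control 1 correlated at 0.917 with the induced libraries. Whether the libraries labelled control 2 and control 3 hold the same cells as the other 4 was not tested, so a change against them is a difference between these libraries and cannot be told apart from a difference between cell populations. The duct keratin gene KRT19 had 532 FPKM in control 1 but only 7.42 and 7.67 FPKM in controls 2 and 3, and 254, 627 and 556 FPKM in induced 1, 2 and 3. EPCAM, an epithelial surface protein, stood at 14.8, 0.963 and 1.04 FPKM across the controls, against 11.2 to 14.8 FPKM after starvation. SOX9, a duct transcription factor, went the other way, at 17.9 FPKM in control 1, 55.1 and 53 FPKM in controls 2 and 3 and 13.2 to 18.9 FPKM after starvation, and the mucin gene MUC1 had 9.23, 1.49 and 1.58 FPKM across the controls, against 10.6, 35.3 and 31.5 FPKM after starvation. Among the other duct markers KRT8 and KRT18 were at 50.7 FPKM or more in all 6 libraries. Both were lower in every induced library than in every control, KRT8 at 274, 270 and 316 FPKM across the controls and 50.7, 148 and 185 FPKM after starvation. CDH1 reached at most 0.892 FPKM and KRT7 at most 2.01 FPKM, and CFTR was listed at 0 in all 6 libraries. Markers of acinar, endocrine and endothelial cells and the leukocyte markers PTPRC and CD3E stayed under 0.33 FPKM, whereas the fibroblast marker LUM stood at 36.8, 0.0532 and 0 FPKM across the controls, against 25.5, 108 and 103 FPKM after starvation, and the macrophage marker CD68 at 12.8, 6.94 and 6.64 FPKM and at 47.8, 38.9 and 37.1 FPKM. Of 6 fibroblast and 5 immune markers, LUM and CD68 alone reached the level tested. Others were higher in controls 2 and 3: the fibroblast collagen genes COL1A1 (4.27 and 4.28 FPKM) and COL3A1 (1.98 and 2.06 FPKM) and the monocyte marker CD14 (4.22 and 3.97 FPKM) reached at most 0.393 FPKM in the other 4 libraries. Their part in the results was not tested, and in bulk RNA fewer cells of a type cannot be told apart from less RNA per cell. Mitochondrially encoded genes took 34% of the summed FPKM in control 1 and between 11.6% and 22.8% in the other 5 libraries. The table gives no read counts, so the depth is unknown, but the spacing of low values put it at 0.712 to 0.818 times that of control 1 in the other 5 libraries.

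Each gene is therefore given with 2 changes, induced against control 1 and induced against controls 2 and 3. A change is the induced minus the control mean on the log2(FPKM + 1) scale, a scale that makes changes of low genes look smaller, and is given with its standard error (SE) where the text turns on it; where 2 changes are given without a label, the first is against control 1. Triplets of FPKM values are in the order of replicates 1, 2 and 3. Both come from limma, with the spread taken from both cell lines and Benjamini-Hochberg adjustment over all 11269 genes; a gene passed at an adjusted p under 0.05. For the first comparison, control 1 is taken to vary as much as libraries of the other groups do. Genes near 0 in BxPC-3 show almost no spread there, which can lower their SE. HIST1H2BG had at most 0.102 FPKM in BxPC-3, and HIST1H4E was listed at 0 in all libraries of that line. Control 1 cannot be left out of the first comparison, so a call against it was checked only without single induced libraries.

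Against control 1, 239 genes (2.12%) passed, 145 higher (1.29%) and 94 lower (0.834%) in induced cells. Against controls 2 and 3, 4973 genes (44.1%) passed, 2358 higher (20.9%) and 2615 lower (23.2%), and against all 3 controls 2197 genes (19.5%), 1046 higher (9.28%) and 1151 lower (10.2%). In the same direction against both, 107 genes (0.95%) rose and 45 (0.399%) fell, and 33 genes (0.293%) passed with opposite signs. For all 107 and all 45 the induced values lay beyond the values of all 3 controls, as they did for 33% of all tested genes. Of the genes that passed against both, 95 of those that rose and 15 of those that fell changed at least 2-fold in both comparisons. The median change of all tested genes was -0.0903 against control 1 and -0.0948 against controls 2 and 3. The 2 comparisons share the induced libraries. Counts of list members below are to be read beside these shares. A count of 0 against control 1 in a list is near its share and is no result about the list.

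With the 6 CFPAC-1 libraries fitted alone, 0 genes passed by limma against control 1 (1722 at an unadjusted p under 0.05), so each of these calls rests on the spread measured in both lines. The number that passed in the same direction against both was 544 without induced 1, 59 without induced 2 and 69 without induced 3. When FPKM was rescaled without the mitochondrially encoded genes, the median of all genes became -0.297 against control 1 and -0.214 against controls 2 and 3, and the split of genes that passed against both was 81 up and 76 down in place of 107 and 45.

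**Figure D1:**
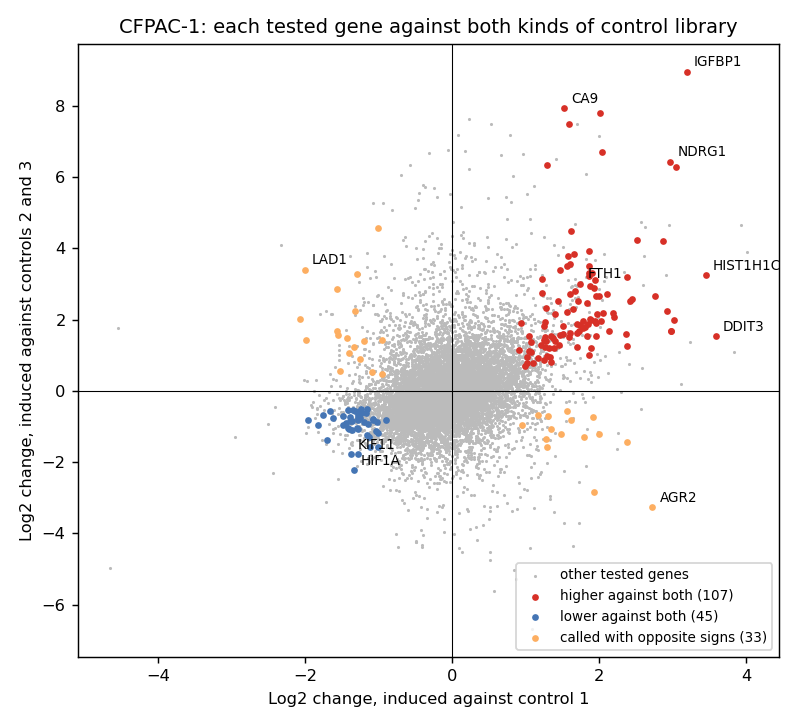
Change of each of the 11269 tested genes on the log2(FPKM + 1) scale, induced against control 1 (horizontal) and against controls 2 and 3 (vertical). Red points (107) are genes that rose against both, blue points (45) genes that fell against both, orange points (33) genes that passed with opposite signs, and grey points all others; the vertical spread is the wider.

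Of the 14 leading rises that agreed in both comparisons, ranked by the smaller change, 5 were of histone genes. HIST1H1C, a linker histone gene (ENSG00000187837, chromosome 6, 26055787 to 26056428, GRCh38), stood at 28.4, 32.5 and 32.7 FPKM in control 1, 2 and 3 and at 204, 417 and 383 FPKM in induced 1, 2 and 3. The 3 controls lay close together and every induced library was well above them, with an induced mean of 335 ± 114 FPKM (SD, n = 3). Its change was 3.45 (SE 0.57, adjusted p = 0.0197) against control 1 and 3.25 (SE 0.43, adjusted p = 0.000158) against controls 2 and 3. HIST1H2BD, a core histone gene of the same cluster on chromosome 6, stood at 10.5, 11.6 and 11.0 FPKM across the controls, against 53.9, 95.0 and 89.1 FPKM after starvation, a change of 2.77 and 2.66. HIST1H2AC went from 3.07, 5.16 and 5.81 FPKM to 18.2, 38.3 and 37.7 FPKM, and HIST2H2AA3, of the cluster on chromosome 1, from 7.13, 20.6 and 17.5 FPKM to 41.0, 80.9 and 75.8 FPKM.

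Of the 15 tested genes listed as replication-dependent histones, 9 rose against control 1 and 0 fell, and the same 9 were among the 11 that rose against controls 2 and 3. Of all tested genes, 20.9% rose against controls 2 and 3. The list's median change was 1.86 and 1.60. The list holds 20 genes, and those under the filter were not tested. Among them HIST1H4C was lower after starvation, at 0.857, 1.3 and 0.764 FPKM across the controls and 0.204, 0.446 and 0.266 FPKM in induced libraries. The others under the filter overlapped between the groups. HIST1H4E and HIST1H2BG reached the filter through the induced libraries alone, with at most 0.287 and 0.736 FPKM in the controls. Besides those named, HIST1H2AE, HIST1H2BC, HIST1H4E, HIST2H2BE and HIST3H2A passed in both, and HIST1H2BG, which is not on the list, rose from 0.736, 0.630 and 0.566 FPKM to 5.76, 9.47 and 11.1 FPKM. HIST2H2AC, with a change of -0.28 and 0.19, and HIST1H2BJ, with 0.97 and -0.12, did not pass in either comparison. HIST1H2BK, the most abundant after HIST1H1C, stood at 56.9, 105 and 100 FPKM across the controls, against 78.3, 143 and 153 FPKM after starvation, so its groups overlapped. Textbook replication-dependent histone mRNAs end in a stem-loop without a poly(A) tail and accumulate during DNA synthesis; the labels do not say how RNA was selected for the libraries. The small nuclear and 7SL RNAs, likewise without a tail, had a median change of -0.121 and 0.277, with 0 of 8 tested genes passing. Without induced 2, or without induced 3, HIST1H1C (adjusted p = 0.0587 and 0.0537), HIST1H2AE (0.0949 and 0.0886), HIST1H2BC (0.0688 and 0.0628) and HIST3H2A (0.0979 and 0.0913) no longer passed against control 1, and without induced 2 HIST1H4E did not (0.0527). HIST1H2BC also missed the threshold against controls 2 and 3 without control 3 (0.0502). Copies of histone genes are similar in sequence, so single values may share reads, as for HIST2H2AA3 and its copy HIST2H2AA4.

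**Figure D2:**
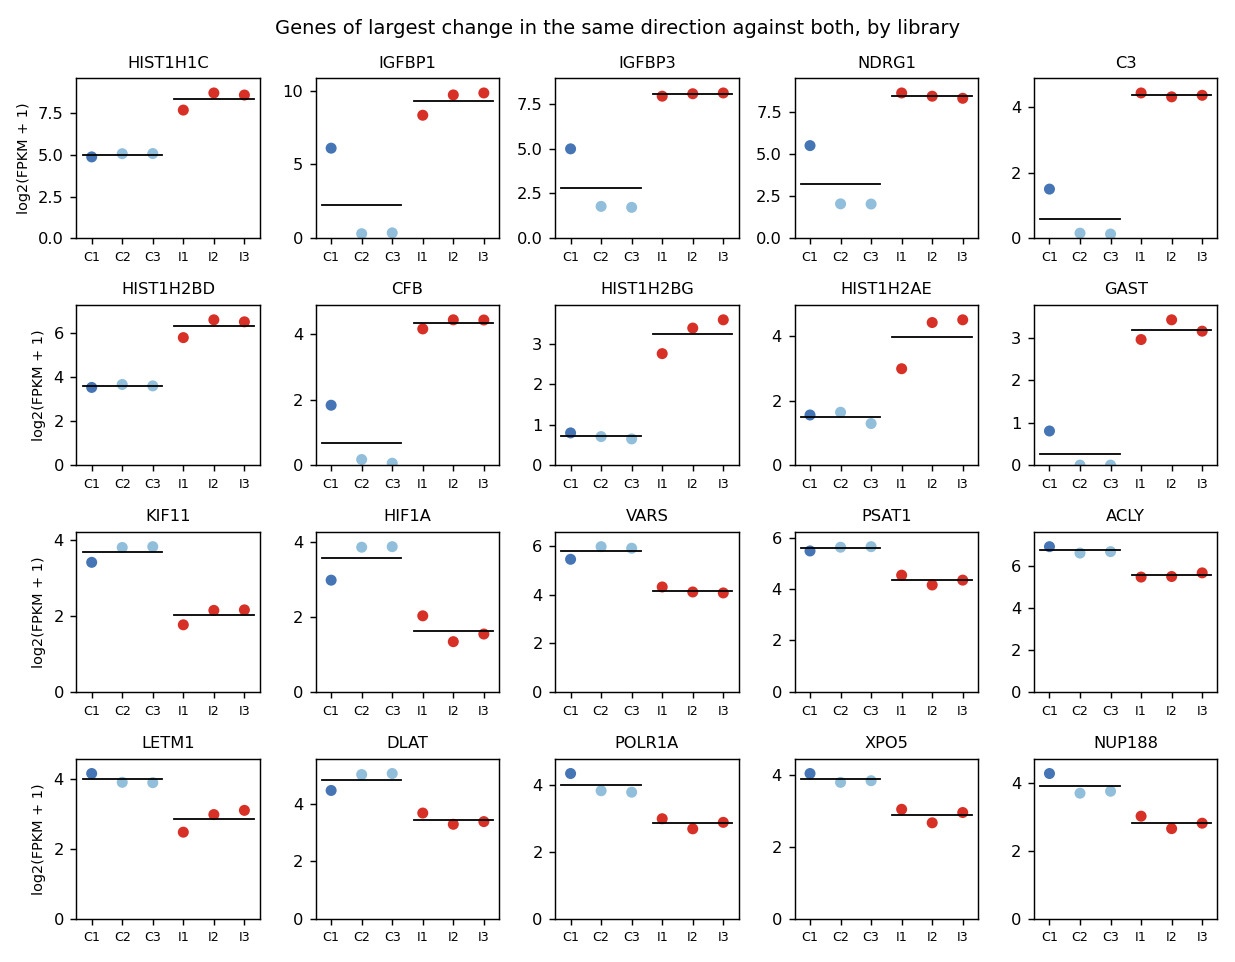
log2(FPKM + 1) in each CFPAC-1 library for the first 10 genes of each direction in the ranking by the smaller of the 2 changes. C1 to C3 are control 1 to 3 (control 1 dark blue, controls 2 and 3 light blue), I1 to I3 the induced libraries (red), and black lines the mean of 3. The induced points lie beyond all control points in every panel, while IGFBP1, IGFBP3, NDRG1, C3 and CFB also part control 1 from controls 2 and 3.

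IGFBP1 and IGFBP3, which encode secreted binding proteins of insulin-like growth factors and are neighbours on chromosome 7 (IGFBP1 from 45888357 to 45893668, IGFBP3 from 45912245 to 45921874), rose against both. IGFBP1 stood at 67.6, 0.239 and 0.288 FPKM across the controls, against 321, 835 and 915 FPKM after starvation. IGFBP3 stood at 30.8, 2.43 and 2.31 FPKM across the controls, against 243, 267 and 276 FPKM after starvation. Control 1 lay between controls 2 and 3 and the induced libraries for both genes, so the change depended on the control: 3.19 (SE 0.65) against 8.95 (SE 0.49) for IGFBP1, and 3.05 (SE 0.64) against 6.28 (SE 0.48) for IGFBP3. The adjusted p against control 1 was 0.0396 for IGFBP1 and 0.0409 for IGFBP3. Neither gene passed there without induced 2 (0.0953 and 0.0962) or without induced 3 (0.0912 and 0.0933), nor with a pseudocount of 0.1 or with the rescaling. IGFBP6, the most abundant binding protein gene after IGFBP1, stood at 324 FPKM in control 1 and at 448, 512 and 441 FPKM after starvation, against 1.54 and 1.65 FPKM in controls 2 and 3, and did not pass against control 1 (adjusted p = 0.306). Of 18 tested genes of the insulin-like growth factor and insulin axis, 3 rose and 0 fell against control 1, 7 rose and 6 fell against controls 2 and 3, and the median change was -0.13 and 0.322.

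Other secreted proteins were among the 14 leading rises. PLAT, tissue plasminogen activator, stood at 27.3, 0.0671 and 0.142 FPKM across the controls, against 85.2, 137 and 130 FPKM after starvation. GAST, which encodes the hormone gastrin, stood at 0.748 FPKM in control 1, was listed at 0 in controls 2 and 3, and stood at 6.81, 9.78 and 7.95 FPKM after starvation. GAST reached the filter through the induced libraries alone. The changes against control 1 were 2.04 for PLAT (adjusted p = 0.0166) and 2.38 for GAST (0.00608), and GAST did not pass with a pseudocount of 0.1 (adjusted p = 0.0889). Chosen after their values were seen, MMP1, interstitial collagenase, went from 0.196, 1.72 and 1.16 FPKM to 6.67, 9.94 and 9.76 FPKM, and S100P, a calcium-binding protein of pancreatic cancer, from 24.9, 2.16 and 3.01 FPKM to 70.7, 83.4 and 82.0 FPKM. Against control 1, PLAT did not pass without induced 2 (adjusted p = 0.051), nor did MMP1 (0.0682 and 0.0625) and S100P (0.0981 and 0.0954) without induced 2 or without induced 3.

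The hypoxia targets NDRG1, ERO1A, P4HA2 and CA9 rose, while HIF1A, the gene of the hypoxia-inducible factor itself, fell. NDRG1, a differentiation and stress gene (ENSG00000104419, chromosome 8, 133237171 to 133302022), stood at 44.8, 3.14 and 3.10 FPKM across the controls, against 401, 350 and 321 FPKM after starvation. The induced libraries lay close together, at 357 ± 40.2 FPKM (SD, n = 3), and its change was 2.96 (SE 0.46, adjusted p = 0.0145) against control 1 and 6.44 (SE 0.34, adjusted p = 3.46e-07) against controls 2 and 3. ERO1A, the oxidase that forms disulfide bonds in the endoplasmic reticulum, went from 13.9, 8.72 and 9.01 FPKM to 86.2, 49.5 and 60.0 FPKM, a change of 2.11 and 2.71. P4HA2, a collagen prolyl hydroxylase subunit, went from 1.60, 1.89 and 1.95 FPKM to 7.00, 5.75 and 5.61 FPKM, and its 3 controls were alike. CA9, the carbonic anhydrase that acidifies the surroundings of hypoxic cells, stood at 84.2 FPKM in control 1, was listed at 0 in controls 2 and 3, and stood at 189, 293 and 263 FPKM after starvation (change against control 1 1.52, adjusted p = 0.033). HIF1A, the oxygen-regulated subunit (chromosome 14, 61695513 to 61748259), stood at 6.85, 13.4 and 13.6 FPKM across the controls, against 3.07, 1.53 and 1.91 FPKM after starvation, a change of -1.34 (SE 0.28) and -2.22 (SE 0.20). All 3 induced values lay under all 3 control values.

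Of 31 tested hypoxia targets, 4 rose and 1 (HIF1A) fell against control 1, 19 rose and 5 fell against controls 2 and 3, and the same 4 and 1 agreed. The list's median change was 1.13 and 1.28. Members that did not pass against control 1 included VEGFA, the vascular growth factor gene, at 2.94, 2.75 and 3.01 FPKM across the controls, against 15.6, 8.21 and 8.83 FPKM after starvation (adjusted p = 0.0903), and the glucose transporter gene SLC2A1, at 77.2, 8.25 and 8.5 FPKM and 204, 182 and 170 FPKM (0.0621). EPAS1, the second oxygen-regulated subunit, had a change of -0.28 and -0.86 and passed against controls 2 and 3 only. NDUFA4L2 and SPAG4, chosen after their values were seen, also rose, NDUFA4L2 from 3.26, 0.0754 and 0.128 FPKM to 9.17, 14.6 and 12.8 FPKM.

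In glycolysis, PGK1, the enzyme of the first ATP-forming step, stood at 122, 97.6 and 99.5 FPKM across the controls, against 254, 256 and 260 FPKM after starvation. It rose by 1.07 (SE 0.21, adjusted p = 0.038) against control 1 and by 1.37 (SE 0.15) against controls 2 and 3, and the values of each group were close together. Of 24 tested glycolysis genes, PGK1 alone passed against control 1, whereas 15 rose and 1 fell against controls 2 and 3, with a median change of 0.517 and 1.35. GAPDH stood at 2390, 1500 and 1700 FPKM across the controls, against 3540, 5060 and 4130 FPKM after starvation, without overlap (adjusted p = 0.145 against control 1). ENO1, enolase, did not follow, at 622, 930 and 957 FPKM and 537, 646 and 593 FPKM. Without induced 2, or without induced 3, CA9, PGK1, HIF1A and SPAG4 did not pass against control 1, and CA9, PGK1 and SPAG4 did not with the rescaling. NDRG1, ERO1A, P4HA2 and NDUFA4L2 passed without any 1 library other than control 1.

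The sequence that hypoxia-inducible factors bind has the core ACGTG, and stretches before the start of 3 members that rose are shown because they hold it (RefSeq, build GRCh38.p14, each read 5′ to 3′ on the strand of the gene). Capitals mark ACGTG or its complement CACGT.
CA9: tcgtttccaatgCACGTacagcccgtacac
PGK1: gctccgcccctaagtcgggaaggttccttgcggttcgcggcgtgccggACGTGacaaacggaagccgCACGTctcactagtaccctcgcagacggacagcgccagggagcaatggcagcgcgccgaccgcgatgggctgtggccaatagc
ERO1A: cgggcgccgcggCACGTccacaggctgggt
They lie at chr9:35673898-35673927 (+), chrX:78103998-78104147 (+) and chr14:52695655-52695684 (-). The matches begin 18 bases before the RefSeq start of CA9, 202 and 183 bases before that of PGK1 and 114 bases before that of ERO1A. Both strands of the 250 bases before the start were searched for these 5 letters, which the E-box CACGTG also contains. They occur in 18.7% of all 27305 promoters in the table and in 24.4% of the 7954 tested genes found there. Among the members found, 11 of 21 hypoxia targets (52.4%) and 8 of 22 glycolysis genes (36.4%) hold them, as do 14 of 55 genes that rose against both (25.5%) and 13 of 37 that fell (35.1%). No match was found for P4HA2 in this window. A match is a stretch of letters and not a measured binding site.

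The complement genes C3 and CFB rose. C3, the central complement component (ENSG00000125730, chromosome 19, 6677704 to 6730562), stood at 1.82, 0.114 and 0.0935 FPKM across the controls, against 20.5, 18.8 and 19.4 FPKM after starvation. CFB, complement factor B of the alternative pathway, stood at 2.56, 0.126 and 0.0406 FPKM across the controls, against 17.0, 20.8 and 20.8 FPKM after starvation. For both genes control 1 was the highest control and far below every induced library, with changes of 2.86 (SE 0.33, adjusted p = 0.00608) and 4.22 (SE 0.24) for C3 and of 2.52 (SE 0.32, adjusted p = 0.00838) and 4.24 (SE 0.24) for CFB. CEBPD, an inducible transcription factor of the acute-phase response, stood at 16.3, 16.7 and 16 FPKM across the controls, against 45.7, 108 and 95.4 FPKM after starvation. Its controls were nearly equal and its change was 2.19 and 2.18. IL32, a cytokine gene, went from 5.77, 0.568 and 0.673 FPKM to 27.9, 23.3 and 20.2 FPKM.

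IL32 was the member that passed against both among 24 tested genes of NF-kB and inflammatory cytokines. Against control 1, 1 rose and 0 fell, with 23 of 24 changes positive; against controls 2 and 3, 15 rose and 2 fell, with 20 positive. The median change was 1.49 in each comparison. CXCL8, the neutrophil chemokine interleukin 8, stood at 6.64, 3.72 and 3.62 FPKM across the controls, against 155, 98.3 and 102 FPKM after starvation, a change of 3.93 that missed the threshold against control 1 (adjusted p = 0.0594), and its change of 4.64 passed against controls 2 and 3 (0.000353). CXCL1, by contrast, was near its induced level in control 1, at 159 FPKM against 204, 230 and 221 FPKM. Of genes chosen after their values were seen, TNIP1, an inhibitor of NF-kB signalling, went from 22.3, 13.7 and 12.7 FPKM to 111, 84.2 and 75.6 FPKM, and RBCK1, a subunit of the linear ubiquitin ligase, from 20.2, 12.7 and 12.1 FPKM to 48.5, 54.7 and 46.3 FPKM. The macrophage marker CD68, given above, had a change of 1.61 (adjusted p = 0.0788) and 2.43 in the same libraries, where the leukocyte marker PTPRC reached at most 0.00578 FPKM; the part of CD68 in these results was not tested.

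HLA-E, a non-classical class I gene of antigen presentation, rose. It stood at 37.2, 60.4 and 59.9 FPKM across the controls, against 125, 154 and 143 FPKM after starvation. Induced and control values were well apart, with changes of 1.88 and 1.21. Of 12 tested genes of antigen presentation, 2 rose and 0 fell against control 1, and 9 rose and 1 fell against controls 2 and 3. The list's median was 0.851 and 1.08. Of 25 tested interferon response genes, 0 passed against control 1 by limma, and 12 rose and 2 fell against controls 2 and 3, with a median of 0.477 and 0.58. BST2 of that list was at 139 FPKM in control 1 and 104, 159 and 143 FPKM after starvation against 0.335 and 0.142 FPKM in controls 2 and 3. UBE2L6 and GBP2, interferon-inducible genes outside the list and chosen after their values were seen, passed against both, UBE2L6 from 1.98, 2.02 and 1.84 FPKM to 7.94, 7.97 and 8.18 FPKM. GBP2 reached the filter through the induced libraries alone, with at most 0.777 FPKM in the controls. Class I genes are similar in sequence, so the value of HLA-E may share reads. Without induced 2, or without induced 3, CEBPD (adjusted p = 0.0815 and 0.0858), IL32 (0.0815 and 0.0628), GBP2 (0.0752 and 0.0747) and RBCK1 (0.0854 and 0.0734) did not pass against control 1, whereas C3, CFB, TNIP1, HLA-E and UBE2L6 did.

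**Figure D3:**
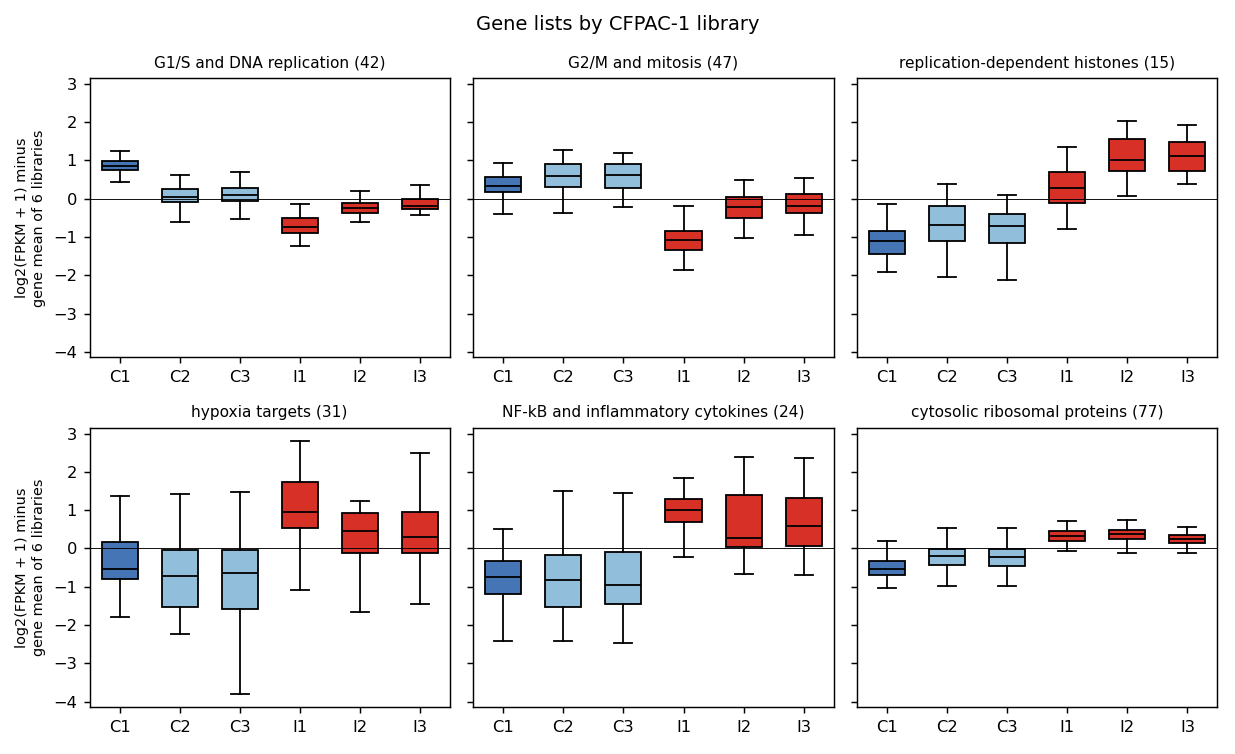
Tested members of 6 gene lists in each CFPAC-1 library, as log2(FPKM + 1) minus each gene's mean over the 6 libraries. Boxes span the quartiles with the median as a line, whiskers reach the farthest value within 1.5 box lengths and values beyond are not drawn. C1 to C3 are controls and I1 to I3 induced libraries; medians of G1/S genes run from -0.728 in induced 1 to 0.848 in control 1, and those of histone genes from -1.11 in control 1 to 1.12 in induced 3.

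GAS5, ZFAS1 and LRRC75A-AS1, host genes of small nucleolar RNAs, rose, as did TPT1, NOP53, BTG1 and 2 ribosomal protein genes, all chosen after their values were seen except the ribosomal protein genes. GAS5, a non-coding host gene named for its rise in growth arrest (chromosome 1, 173863900 to 173868882), stood at 14.3, 8.59 and 8.73 FPKM across the controls, against 77.3, 53.6 and 51.6 FPKM after starvation. ZFAS1, another such host, went from 10.6, 10.4 and 10.7 FPKM to 56.0, 34.1 and 31.9 FPKM, and LRRC75A-AS1, also known as SNHG29, from 31.6, 30 and 29.5 FPKM to 101, 87.1 and 86.7 FPKM. TPT1, the translationally controlled tumour protein, stood at 47.1, 46.1 and 51.4 FPKM across the controls, against 160, 163 and 151 FPKM after starvation, with a change of 1.73 and 1.68. NOP53, a ribosome assembly factor, went from 21.3, 22.3 and 23.3 FPKM to 66.5, 70.5 and 61.8 FPKM. The 3 controls of ZFAS1, LRRC75A-AS1, TPT1 and NOP53 lay close together, while GAS5 was higher in control 1 than in controls 2 and 3. BTG1, an antiproliferative gene, went from 15.3, 9.37 and 9.32 FPKM to 60.4, 44.8 and 45.9 FPKM.

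Among the cytosolic ribosomal proteins RPL13A stood at 480, 473 and 473 FPKM across the controls, against 1080, 1020 and 946 FPKM after starvation, and RPL12 at 277, 350 and 346 FPKM and at 616, 606 and 561 FPKM. These 2 of 77 tested genes passed against both. All 77 had a positive change against control 1, where 3 rose and 0 fell, and 68 had a positive change against controls 2 and 3, where 34 rose and 2 fell. The median change was 0.821 and 0.49, and 0.639 and 0.392 with the rescaling, under which 0 of 77 passed against control 1 by limma. Many ribosomal protein genes have processed copies in the genome, which may share reads with them.

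Such mRNAs are known to begin with a C followed by a run of C or T, the element through which growth signals govern their translation. The 20 bases around the RefSeq start are shown for 4 genes that rose, with the run from the start in capitals.
TPT1: ctgagtcggcCTTTTCCgcc
RPL13A: aaacctcctcCTTTTCCaag
RPL12: cgatttccggCCTCTCggct
NOP53: tggctgagttCTTCCTTTga
They lie at chr13:45341174-45341193 (-), chr19:49487598-49487617 (+), chr9:127451397-127451416 (-) and chr19:47745536-47745555 (+), build GRCh38.p14. A C at the start followed by at least 4 bases that are C or T was found in 4.04% of all promoters in the table, in 5.76% of the tested genes, in 41 of the 61 ribosomal protein genes found (67.2%), in 6 of 55 genes that rose against both (10.9%) and in 1 of 37 that fell (2.7%). The measurement is of RNA level and says nothing of translation.

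In ribosome biogenesis, the making of new ribosomal RNA and subunits, POLR1A and UTP20 fell. POLR1A, the catalytic subunit of RNA polymerase I, stood at 19.4, 13.2 and 12.8 FPKM across the controls, against 6.97, 5.47 and 6.40 FPKM after starvation, a change of -1.49 (adjusted p = 0.0448) and -0.95. UTP20, a processing factor of the small subunit, went from 7.54, 3.70 and 3.60 FPKM to 2.67, 0.653 and 1.29 FPKM. These 2 of 39 tested genes fell against both. Against control 1, 0 rose and 2 fell, and against controls 2 and 3, 1 rose and 22 fell, with a median change of -0.471 and -0.793. URB2 and DHX37, 2 further factors chosen after their values were seen, fell by 1.28 and 1.18 against control 1. FBL, fibrillarin, stood at 109 FPKM in control 1 and at 82.7, 104 and 96.0 FPKM after starvation against 997 and 1010 FPKM in controls 2 and 3. The calls of POLR1A (adjusted p = 0.107 and 0.0954), UTP20 (0.0886 and 0.104), DHX37 (0.0716 and 0.0689), RPL13A (0.089 and 0.0815), RPL12 (0.0859 and 0.0767), ZFAS1 (0.0807 and 0.0667) and BTG1 (0.0815 and 0.0816) against control 1 were lost without induced 2 or without induced 3, and that of URB2 without induced 2 (0.0674). Against controls 2 and 3, POLR1A (0.0526) and DHX37 (0.0542) did not pass without control 2, nor UTP20 without control 2, control 3, induced 2 or induced 3 (0.06 to 0.108). GAS5, LRRC75A-AS1, TPT1 and NOP53 passed without any 1 library other than control 1.

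The mitotic kinesin gene KIF11 and the replication genes MCM6, MCM10 and POLE2 fell. KIF11, the kinesin that separates the spindle poles (ENSG00000138160, chromosome 10, 92593286 to 92655395), stood at 9.58, 12.9 and 13.1 FPKM across the controls, against 2.39, 3.41 and 3.45 FPKM after starvation. All induced values lay under all controls, and its change was -1.38 (SE 0.27, adjusted p = 0.0354) and -1.78 (SE 0.20, adjusted p = 4.65e-05). MCM6, a subunit of the replicative helicase, stood at 36.7, 19.8 and 19.4 FPKM across the controls, against 12.1, 13.1 and 14.2 FPKM after starvation. MCM10, a replication initiation factor, went from 6.94, 2.54 and 2.84 FPKM to 1.36, 1.40 and 1.79 FPKM, and POLE2, a DNA polymerase epsilon subunit, from 4.89, 2.08 and 2.96 FPKM to 1.31, 1.43 and 1.33 FPKM. For the replication genes control 1 was the highest library, so their changes were larger against it: -1.42, -1.66 and -1.32, against -0.55, -0.55 and -0.57. ATAD2, a chromatin ATPase linked to proliferation, went from 18.7, 7.87 and 7.96 FPKM to 5.47, 2.96 and 4.01 FPKM.

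Of 42 tested genes of G1/S and DNA replication, 0 rose and 5 fell against control 1, 0 rose and 16 fell against controls 2 and 3, and 3 agreed. Their median change was -1.21 and -0.417, and 0 of 42 changes were positive against control 1. Of 47 tested genes of G2/M and mitosis, KIF11 alone fell against control 1 and 31 fell against controls 2 and 3, with a median of -0.862 and -1.08. The induced libraries were uneven in these lists: relative to each gene's mean, the median of the G2/M genes was -1.08 in induced 1 and -0.208 and -0.195 in induced 2 and 3, against 0.345 to 0.628 in control libraries. MKI67, the proliferation marker, stood at 10.7, 12.0 and 13.9 FPKM across the controls, against 3.49, 2.63 and 3.41 FPKM after starvation, without overlap (adjusted p = 0.0761 against control 1). PLK1, a mitotic kinase, stood at 27.0, 26.1 and 27.4 FPKM across the controls, against 4.31, 20.1 and 20.2 FPKM after starvation, and its low mean rested on induced 1.

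CDKN2B, an inhibitor of the G1 kinases, went in the other direction. It stood at 3.53 FPKM in control 1, was listed at 0 in controls 2 and 3, and stood at 12.0, 13.3 and 14.6 FPKM after starvation. Its change against control 1 was 1.65. CDKN2B had at most 0.0606 FPKM in BxPC-3, so those libraries add almost no spread to its SE. It was the member that passed against both among 26 tested genes of quiescence and FOXO targets, of which 1 rose against control 1 and 9 rose and 2 fell against controls 2 and 3, with a median of 0.679 and 0.731. CDKN1A, the p53-induced kinase inhibitor, stood at 10.4, 23.3 and 24.1 FPKM across the controls, against 45.9, 41.5 and 40.5 FPKM after starvation, without overlap and without passing (adjusted p = 0.0723 and 0.1). Further genes that fell against both, chosen after their values were seen, were the replication checkpoint and repair genes CLSPN (-1.41 and -1.08), DNA2 (-1.42 and -1.04) and FANCD2 (-1.36 and -0.86), the E2F partner TFDP1 (-1.17 and -0.50), the condensin gene NCAPD3 (-1.76 and -0.69), the mitotic checkpoint gene TRIP13 (-1.24 and -0.63) and the nuclear envelope genes LMNB2, TMPO and LBR (-1.26, -1.39 and -1.28 against control 1). Of the 15 cell cycle genes given with values here as passing against both, all but CDKN2B lost a call without some 1 library, with adjusted p-values of 0.0522 to 0.198 there. For KIF11 these were induced 2 (0.0746) and induced 3 (0.0729), for MCM6 control 2 (0.0764) and control 3 (0.067), for POLE2 control 3 (0.171), and for ATAD2 control 2 (0.0567) and control 3 (0.0609). MCM10 lost a call without any of control 2 (0.116), control 3 (0.198), induced 1 (0.0677) and induced 2 (0.0916 against controls 2 and 3 and 0.0527 against control 1).

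The other leading falls included 3 genes of nuclear transport and 3 of mitochondria. NUP188, a scaffold protein of the nuclear pore, stood at 18.6, 12.1 and 12.6 FPKM across the controls, against 7.18, 5.34 and 6.08 FPKM after starvation. Its change of -1.45 and -0.90 passed without any 1 library other than control 1. CSE1L, the exporter that recycles importin alpha, went from 57.3, 38.0 and 39.1 FPKM to 27.6, 16.6 and 20.6 FPKM, and XPO5, the exporter of microRNA precursors, from 15.4, 12.8 and 13.3 FPKM to 7.23, 5.35 and 6.74 FPKM. MFN2, a mitochondrial fusion protein, went from 49.2, 43.7 and 44.6 FPKM to 26.6, 21.9 and 22.8 FPKM. LETM1, an ion exchanger of the inner membrane, DLAT, a subunit of pyruvate dehydrogenase, and HSPH1, a cytosolic heat shock protein, fell by 1.30, 1.02 and 1.08 against control 1. Of 35 tested nuclear genes of oxidative phosphorylation, 0 passed against control 1 by limma and 3 rose and 12 fell against controls 2 and 3, with a median of -0.379 and -0.336. The 13 mitochondrially encoded mRNAs had a median of -1.46 and -0.37, with 0 and 1 passing. MT-CO1 stood at 12600, 6020 and 6080 FPKM across the controls, against 3610, 7010 and 7700 FPKM after starvation, so that control 1 was the highest and induced 1 the lowest library. Without induced 2, or without induced 3, CSE1L (adjusted p = 0.0886 and 0.0954), XPO5 (0.0886 and 0.0836), MFN2 (0.0989 and 0.0994), LETM1 (0.0832 and 0.0628), DLAT (0.113 and 0.11) and HSPH1 (0.107 and 0.1) did not pass against control 1, nor CSE1L against controls 2 and 3 without control 2 (0.0514) or control 3 (0.0609).

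The lipid synthesis genes ACLY and ELOVL6 fell, and ACSL5 and PLIN2 rose. ACLY, which makes cytosolic acetyl-CoA from citrate (chromosome 17, 41866908 to 41930542), stood at 119, 96.4 and 101 FPKM across the controls, against 43.1, 43.9 and 49.7 FPKM after starvation. The groups were well apart, with a change of -1.37 (adjusted p = 0.0245) and -1.10. ELOVL6, a fatty acid elongase, went from 3.65, 4.28 and 4.25 FPKM to 1.35, 1.19 and 1.37 FPKM. ACSL5, an acyl-CoA synthetase, went up from 2.47, 0.145 and 0.0833 FPKM to 8.92, 12.4 and 14.1 FPKM, and PLIN2, the coat protein of lipid droplets, chosen after its values were seen, from 8.02, 8.49 and 8.40 FPKM to 28.5, 37.1 and 37.5 FPKM. Of 23 tested genes of fatty acid synthesis 1 rose and 2 fell against control 1, 4 rose and 13 fell against controls 2 and 3, and the median change was -0.387 and -0.968. FASN, fatty acid synthase, stood at 98.6, 256 and 263 FPKM across the controls, against 34.1, 26.2 and 27.8 FPKM after starvation, without overlap (change -1.72, adjusted p = 0.0533 against control 1, and -3.11).

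Cholesterol synthesis depended on which control was used. The 26 tested genes had a median change of -0.309 against control 1 and -1.54 against controls 2 and 3. Against controls 2 and 3, 1 rose and 22 fell, where 20.9% and 23.2% of all tested genes did. INSIG1, a sterol-regulated gene of the same pathway, stood at 14.5 FPKM in control 1 and at 13.1, 9.36 and 15.5 FPKM after starvation, against 89.0 and 88.8 FPKM in controls 2 and 3. HMGCS1, an early enzyme, showed the same order, at 6.75 FPKM in control 1, 8.44, 2.52 and 6.35 FPKM after starvation and 39.7 and 39.5 FPKM in controls 2 and 3.

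Amino acid and stress genes changed in both directions. DDIT3, the stress-induced transcription factor CHOP (chromosome 12, 57516588 to 57521737), stood at 2.75, 14.2 and 15.1 FPKM across the controls, against 50, 50.3 and 33.8 FPKM after starvation, a change of 3.59 (adjusted p = 0.00125) and 1.53 (0.000202). DNAJB9, a chaperone of the endoplasmic reticulum, went from 2.17, 5.84 and 6.02 FPKM to 17.6, 13.5 and 15.6 FPKM. For these 2 genes control 1 was the lowest library. PSAT1, an enzyme of serine synthesis, stood at 43.5, 48.3 and 49.0 FPKM across the controls, against 22.2, 16.8 and 19.3 FPKM after starvation, and VARS, valyl-tRNA synthetase, at 42.7, 61.6 and 58.9 FPKM and at 18.9, 16.2 and 15.8 FPKM. ASS1, argininosuccinate synthase, chosen after its values were seen, rose from 17.3, 7.58 and 7.58 FPKM to 52.9, 48.5 and 45.2 FPKM. ATF4, the factor that activates DDIT3 and PSAT1, stood at 81.5, 149 and 148 FPKM across the controls, against 157, 161 and 159 FPKM after starvation and did not pass in either comparison.

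Of 28 tested genes of ATF4 and the amino acid response, 4 rose and 1 fell against control 1, 7 rose and 5 fell against controls 2 and 3, and DDIT3 (up) and PSAT1 (down) agreed. The median change was 0.104 and 0.23, and the first became -0.0663 with the rescaling. Of 21 tested genes of the unfolded protein response, DNAJB9 alone passed against control 1, and 3 rose and 3 fell against controls 2 and 3, with a median of 0.25 and 0.177. Without induced 2, or without induced 3, ACLY (adjusted p = 0.0706 and 0.0529), ELOVL6 (0.0919 and 0.0863), PLIN2 (0.0706 and 0.0667), PSAT1 (0.0886 and 0.0897), VARS (0.105 and 0.105) and DNAJB9 (0.0716 and 0.0785) did not pass against control 1, nor DNAJB9 against controls 2 and 3 without control 2 (0.0699) or control 3 (0.0637). DDIT3, ACSL5 and ASS1 passed without any 1 library other than control 1.

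FTH1, the aldo-keto reductases AKR1C1 and AKR1C2, CTSL and OPTN rose. FTH1, the ferritin heavy chain, stood at 1470, 610 and 606 FPKM across the controls, against 3910, 5740 and 5300 FPKM after starvation, a change of 1.74 (adjusted p = 0.0318) and 3.01. AKR1C1 and AKR1C2, neighbouring aldo-keto reductase genes on chromosome 10, stood at 58.7 and 54.3 FPKM in control 1, at most 0.0168 FPKM in controls 2 and 3, and at 175 to 229 FPKM after starvation. These genes are nearly identical, and FTH1 has many processed copies, so their single values may share reads. GLRX, glutaredoxin, chosen after its values were seen, went from 4.38, 1.11 and 0.907 FPKM to 19.8, 18.4 and 19.1 FPKM. Of 29 tested NRF2 targets, FTH1, AKR1C1 and AKR1C2 passed against both. Against control 1, 4 rose and 0 fell, and against controls 2 and 3, 16 rose and 4 fell, with a median of 0.2 and 1.05. CTSL, a lysosomal protease, went from 46.9, 30.2 and 29.4 FPKM to 120, 202 and 199 FPKM, and OPTN, an autophagy receptor, from 6.33, 7.93 and 8.01 FPKM to 28.7, 24.1 and 23.2 FPKM. They were the 2 of 38 tested lysosome and autophagy genes that passed against both, where 4 rose and 0 fell against control 1 and 9 rose and 5 fell against controls 2 and 3, with a median of 0.403 and -0.0663. FTH1 did not pass against control 1 without induced 2 or without induced 3, while the other 5 genes passed without any 1 library other than control 1.

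In the 6 lists of cilium structure, traffic and disassembly, of 8 to 28 tested genes each, 0 members passed against control 1 by limma, where 2.12% of all tested genes did. A count of 0 is near that share and is no result about cilium genes. Of 28 tested genes of intraflagellar transport, 3 rose and 10 fell against controls 2 and 3, with a median change of 0.152 against control 1 and -0.239 against controls 2 and 3. KIF3B, a motor subunit of this transport, stood at 11.0, 20.8 and 20.6 FPKM across the controls, against 9.86, 6.04 and 7.01 FPKM after starvation, and WDR34, a dynein subunit, at 44.0, 28.4 and 29.1 FPKM and at 14.3, 32.5 and 27.3 FPKM. KIF3B passed against controls 2 and 3 (adjusted p = 0.000628), while the groups of WDR34 overlapped. IFT88 and IFT74 were under 1 FPKM in enough libraries not to be tested.

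The median was 0.179 and -0.0149 for the 8 tested BBSome genes, 0.0121 and -0.252 for 15 of the transition zone (the first became -0.174 with the rescaling), -0.153 and -0.409 for 16 of the ciliary membrane, and -0.252 and -0.476 for 13 of the centriole and basal body. Against controls 2 and 3, 0 rose and 1 fell in the BBSome, 2 and 3 in the transition zone, 1 and 5 in the ciliary membrane list, and 0 and 5 in the centriole list. CETN2, a centrin of the basal body, was higher than in control 1 and lower than in the others, at 4.36, 31.6 and 27.9 FPKM across the controls, against 11.5, 10.1 and 10.9 FPKM after starvation (adjusted p = 0.0552 and 0.000228). Of 13 tested genes of cilium disassembly, 2 rose and 7 fell against controls 2 and 3, with a median of -0.564 and -0.711. AURKA, the mitotic kinase that triggers disassembly, stood at 30.7, 24.2 and 38.9 FPKM across the controls, against 7.18, 19.5 and 13.1 FPKM after starvation, without overlap (adjusted p = 0.264 and 0.0442). Of 7 tested Hedgehog pathway genes, 0 passed against control 1 and 4 rose against controls 2 and 3, with a median of -0.288 and 0.682. GLI1, the target used as its readout, had 3.34 FPKM in control 1, 0.999 and 1.01 FPKM in controls 2 and 3 and 2.26, 2.62 and 2.18 FPKM after starvation, so induced cells were between the controls.

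**Figure D4:**
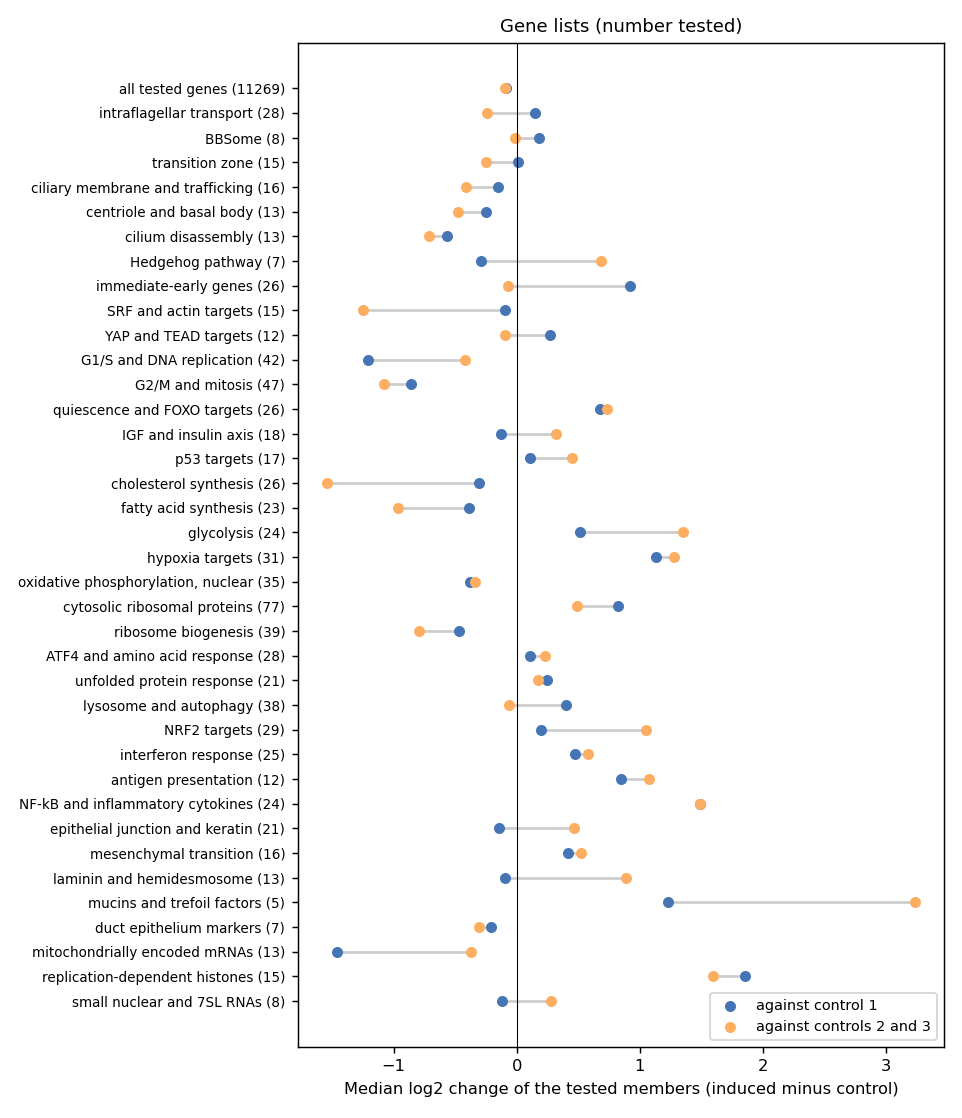
Median log2 change of the tested members of each gene list, against control 1 (blue) and against controls 2 and 3 (orange), with the number tested in brackets and all tested genes in the top row. Histone, hypoxia and NF-kB medians lie above 1 against both, as do those of the 5 tested mucin and trefoil factor genes (1.23 and 3.24). G2/M medians lie at -0.862 and -1.08, and the 6 cilium lists between -0.711 and 0.179.

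Serum-responsive genes likewise differed by control. The 26 tested immediate-early genes had a median change of 0.918 against control 1 and -0.0706 against controls 2 and 3. Against controls 2 and 3, 6 rose and 3 fell, where 20.9% and 23.2% of all tested genes did. These counts are near or below those shares and are no result about the list. EGR1 stood at 21.7, 191 and 193 FPKM across the controls, against 60.9, 190 and 208 FPKM after starvation, and JUNB, a subunit of the AP-1 factor, at 82.4, 73.3 and 68.5 FPKM and at 162, 346 and 318 FPKM. JUNB did not overlap between the groups (adjusted p = 0.0626 and 0.000546). Of 15 tested SRF and actin targets, 0 passed against control 1 and 0 rose and 8 fell against controls 2 and 3, with a median of -0.0979 and -1.25. ACTB, cytoplasmic actin, stood at 566, 1110 and 1380 FPKM across the controls, against 241, 400 and 497 FPKM after starvation. The YAP and TEAD targets CYR61 and CTGF were at 11.7 and 2.77 FPKM in control 1 and at 241 to 481 FPKM in controls 2 and 3, with induced libraries between them at 3.73 to 56.0 FPKM.

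The 33 genes that passed with opposite signs show how far the choice of control reaches: 15 were higher than control 1 and lower than controls 2 and 3, and the rest the reverse. AGR2, a disulfide isomerase of mucus-secreting cells, stood at 0.832, 115 and 114 FPKM across the controls, against 4.84, 16.2 and 16.6 FPKM after starvation, a change of 2.72 and -3.26. TSPAN13, a tetraspanin, stood at 1.27, 60.4 and 61.1 FPKM across the controls, against 11.5, 6.72 and 5.72 FPKM after starvation, and SAT1, the enzyme that acetylates polyamines, at 6.44, 103 and 103 FPKM and at 26.2, 43.8 and 45.8 FPKM. In reverse, LAD1, a basement membrane anchoring protein, stood at 41.4 FPKM in control 1, was listed at 0 in controls 2 and 3, and stood at 5.78, 12.0 and 12.4 FPKM after starvation. DDC, the decarboxylase that makes dopamine and serotonin, and STRIP2 showed the same order, with changes against control 1 of -2.07 and -1.57. In each of these genes the induced libraries lay between control 1 and controls 2 and 3. Without induced 2, or without induced 3, AGR2 (adjusted p = 0.0962 and 0.0913), LAD1 (0.0644 and 0.0529) and STRIP2 (0.0815 and 0.0628) did not pass against control 1, nor DDC without induced 2 (0.051).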

How the data were processed

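RNA-seq was measured in 12 libraries of 2 lines; the 6 of CFPAC-1 are compared here and those of BxPC-3 add to the estimate of spread. The authors deposited log2(FPKM + 1) for 60564 genes; per the submitters' processing notes StringTie, FastQC and GRCh38 were used, and per the labels' protocols TRIzol RNA and a standard Illumina library. No source used here names the aligner, annotation, strandedness or RNA selection. The values were tested as deposited with limma 3.58.1 (R 4.3.3), two-sided, for genes with at least 1 FPKM in at least 3 CFPAC-1 libraries: induced against all 3 controls, against control 1 (controls 2 and 3 left out) and against controls 2 and 3. P-values were Benjamini-Hochberg adjusted over 11269 genes. No read counts were used and no count test was run. The test was checked on simulated data in which all CFPAC-1 libraries shared the same mean apart from added changes. The check therefore does not cover the split of control 1 from controls 2 and 3.

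The comparison and the gene lists were chosen with earlier results of these data known. Named genes were the 14 per direction with the largest smaller change among genes that passed against both, did not overlap and reached a mean of 5 FPKM in the higher group, up to 3 per direction with opposite signs, and per list the members that passed against both (up to 6) and the 2 of highest level. All other genes were chosen after their values were seen. Alternatives were a pseudocount of 0.1, no filter, a mean of at least 5 FPKM, quantile normalization, rescaling without mitochondrially encoded genes, a trended robust spread, CFPAC-1 alone, a replicate block and leaving out each library. Gene coordinates are from GENCODE 29, which holds 99.8% of the tested genes.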

Additional observations from a re-analysis of the deposited data

Results flagged for a closer look

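For 28 genes named in the text, the change under serum starvation differed between the cell lines by limma's test of the difference itself, against control 1 and also against controls 2 and 3 of CFPAC-1. Only genes that had passed in CFPAC-1 against both were considered, and the test uses the same CFPAC-1 libraries. A large change in CFPAC-1 was therefore built in. The share of all tested genes that differ between the lines is not given, so the count is no measure of how far the lines differ. In BxPC-3 CA9 alone of the 28 passed, and the adjusted p-values of the other genes there were 0.332 to 1. Each value below is the change in BxPC-3 minus the change in CFPAC-1 against control 1 on the log2(FPKM + 1) scale, and the adjusted p-values of these differences ran from 0.00207 to 0.0485.

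DDIT3 differed most, by -4.16 (adjusted p = 0.00207): it stood at 6.96, 10.0 and 9.45 FPKM across the BxPC-3 controls, against 5.91, 5.69 and 5.02 FPKM after starvation of BxPC-3. Among the histones HIST1H2BG differed by -2.40, HIST2H2AA3 by -2.42, its copy HIST2H2AA4 by -2.43 and HIST2H2BE by -2.43. Among genes of growth arrest and the ribosome, GAS5 differed by -2.05, NOP53 by -1.93 and CDKN2B by -1.62. GAS5 stood at 12.7 to 14.4 FPKM across the BxPC-3 controls, against 12.2 to 14.5 FPKM after starvation of BxPC-3.

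Among immune genes HLA-E differed by -1.88, TNIP1 by -1.82 and UBE2L6 by -1.65. HLA-E stood at 87.6, 99.5 and 90.2 FPKM across the BxPC-3 controls, against 106, 87.6 and 85.4 FPKM after starvation of BxPC-3, so its groups overlapped there. AKR1C1 differed by -1.72, AKR1C2 by -1.88, OPTN by -1.66, NDUFA4L2 by -1.69, GAST by -2.30, S100P by -2.42, PORCN by -1.54 and EFEMP2 by -1.91.

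For CA9 the sign of the difference depended on the control. It rose in BxPC-3 by 5.13 (adjusted p = 3.91e-06). The difference from CFPAC-1 was 3.61 (adjusted p = 0.00607) with control 1 and -2.80 (adjusted p = 6.31e-05) with controls 2 and 3, where CA9 is listed at 0 and the fitted change is no measured fold.

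The genes that fell in CFPAC-1 differed with the opposite sign. MCM6 differed by 1.78, MCM10 by 2.08, POLE2 by 1.49, CLSPN by 1.88, DNA2 by 1.73, NCAPD3 by 2.05, ROR1 by 1.35 and ATAD2 by 2.13. MCM6 stood at 14.2, 11.7 and 12.9 FPKM across the BxPC-3 controls, against 16.8, 16.6 and 17.1 FPKM after starvation of BxPC-3, against 36.7, 19.8 and 19.4 FPKM in CFPAC-1 control.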

How the results depend on the processing

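The 185 genes considered were chosen because they passed in both comparisons of these data. That no value changed direction under any alternative run follows largely from this choice and is no support for the changes. Of 4294 recomputed values with a test 3538 kept their side of the threshold and 756 no longer passed. Of 370 differences taken within library numbers, which have no test, 119 moved by more than the spread, all of them within number 1. With CFPAC-1 fitted alone, 274 genes passed against all 3 controls, 0 against control 1 and 0 in both. All 152 genes that agreed in the main test had an unadjusted p under 0.05 in both there, among 955 such genes. They had been chosen for a small p in the same CFPAC-1 libraries. Their unadjusted p-values therefore follow largely from that choice and are no support for their changes. Without a filter on low values the counts against control 1, against controls 2 and 3 and in both were 1100, 7702 and 383; quantile normalization gave 476 against control 1 and 302 in both; a mean of at least 5 FPKM gave 1379 against all 3 controls and 2858 against controls 2 and 3, with fewer genes tested. Leaving out 1 library gave 583 to 4973 against all 3 controls, 83 to 863 against control 1, 3174 to 5564 against controls 2 and 3 and 59 to 544 in both. The extremes against control 1 came without induced 2 (83) and without induced 1 (863); against all 3 controls without control 2 (583) and without control 1 (4973). Rescaling without mitochondrially encoded genes left 2395 genes against all 3 controls, 758 up and 1637 down, where 1046 rose and 1151 fell as deposited, and 110 up and 125 down against control 1. For the other changes the cause was not tested. In the main test and 11 alternatives, which leave out CFPAC-1 alone and the mean of 5 FPKM, 43 genes rose and 3 fell every time. With the rescaling, HIST1H2AE, HIST3H2A, S100P, IL32, RBCK1, ZFAS1 and BTG1 did not pass against control 1. Nor did RPL13A, RPL12, POLR1A, UTP20, DLAT, MFN2 and STRIP2. None of these passed there with a pseudocount of 0.1 either. Depth is unknown and limits low genes most.

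Same-numbered libraries correlated at -0.0819, -0.0362 and -0.0998 in their deviations from the group means. The split of control 1 from controls 2 and 3 is part of these deviations, so they cannot show whether same-numbered libraries shared a batch. Induced 2 and 3 correlated at r = 0.987 with each other and at 0.925 and 0.936 with induced 1. Whether the numbers mark batches was not tested. With a replicate block, 151 genes passed against control 1 and 102 in both, 76 of them among the 152.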

Other observations

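Several genes outside the groups above, chosen after their values were seen, also changed against both sets of controls. ANG and RNASE4, secreted ribonucleases whose genes overlap on chromosome 14 (20684177 to 20698971 and 20684100 to 20701215, GRCh38), rose together. ANG stood at 0.553, 1.24 and 1.02 FPKM across the controls, against 4.49, 3.93 and 3.69 FPKM after starvation, a change of 1.69 (limma, adjusted p = 0.00931) against control 1 and 1.24 against controls 2 and 3. RNASE4 stood at 0.817, 1.32 and 1.63 FPKM across the controls, against 6.29, 8.39 and 6.36 FPKM after starvation. Because the genes overlap, reads may be shared between them.

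Of the Wnt pathway, PORCN, the acyltransferase that lipid-modifies Wnt ligands for secretion, stood at 2.89, 2.30 and 2.96 FPKM across the controls, against 14.5, 10.7 and 11.2 FPKM after starvation. It rose by 1.74 and 1.85. ROR1, a receptor of Wnt5a, fell from 2.65, 2.06 and 2.22 FPKM to 0.623, 0.405 and 0.463 FPKM. EFEMP2, an extracellular matrix protein of elastic fibres, went from 1.5, 1.21 and 1.18 FPKM to 7.73, 10.5 and 8.33 FPKM. In all 3 the controls lay close together. ANG, RNASE4, PORCN and ROR1 passed against both with all settings but 2: with CFPAC-1 alone they did not pass against control 1, and the mean of at least 5 FPKM is not counted here, since low genes are not tested there.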
